A study of Mus musculus with 4 samples.

Results

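The genes described here encode the machinery that copies nuclear DNA: the proteins that mark and license origins, the replicative helicase and its activators, the DNA polymerases, the sliding clamp and its loader, and the enzymes that finish the new strands. They were chosen by name, as a list of 49 gene symbols sorted into 11 roles, and all 49 matched 1 row each among the 23763 genes of the deposited table. Total RNA of whole spleen from C57BL/6J mice, labelled as baseline, was sequenced after ribosomal RNA depletion with a directional kit. The groups were wild-type (WT, 2 libraries) and KLHL3 knock-in (KLHL3-KI, 2 libraries). The labels name neither the allele knocked in nor the sex or age of the animals, and nothing says that libraries of a group came from separate mice, so p-values measure only the spread between these samples, which may be technical.

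Replication starts when the origin recognition complex and the loading factors CDC6 and CDT1 place the ring-shaped MCM2-7 helicase on DNA in G1 phase. In S phase, kinases and the factors CDC45 and GINS turn that ring into an active helicase, polymerase alpha-primase lays down primers, and polymerases epsilon and delta extend them with the PCNA clamp. Many of these genes are known targets of E2F transcription factors and are expressed mainly in dividing cells, which in a mouse spleen can include red cell precursors, myeloid precursors and activated lymphocytes.

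The values below are scaled read counts, meaning reads per gene divided by 1 factor per library as deposited, and fold values are ratios of group means with n = 2 libraries each. A log2 fold change is the KLHL3-KI mean less the WT mean on log2(value + 1), which understates the change of low genes, with the standard error (SE) and the Benjamini-Hochberg adjusted p of limma over all 16970 tested genes. Recovered whole reads came to 8535483 and 8975415 for WT replicates 1 and 2 and to 9586677 and 10933023 for the KLHL3-KI replicates. The lowest member had 31 and 29 reads in WT against 90 and 146 in KLHL3-KI libraries, and all 49 members passed the filter on low values, a mean of at least 1. Klhl3 itself was low, at 3.02 and 4.67 in WT against 2.53 and 1.36 in KLHL3-KI spleen, from 14 to 45 reads a library, and had no call (adjusted p = 0.0895). It passed as lower in 3 alternatives: with equal totals (0.0488), without haemoglobin, immunoglobulin and mitochondrial genes (0.0398) and without KLHL3-KI replicate 1 (log2 fold change -1.01, adjusted p = 0.0141). Since the allele is not given, this level is no check of the labels. Exons of 16 members overlap a gene on the opposite strand in GENCODE M21 (among them Orc1, Orc4, Orc6, Mcm7, Fen1, Lig1 and Chaf1a), and because it is not stated whether counting used strand, reads of such pairs may be shared. Exons of 3 members, Orc5, Rpa1 and Pole2, overlap a gene on the same strand, where strand would not separate the reads.

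Because many members moved together, the letters before their start sites were read from RefSeq promoter windows of build GRCm38.p6, which is not the build the submitters name, GRCm39. Each window runs from 250 bases before to 50 bases after a gene's start, and 40 of the 49 members matched by symbol, 7 of them with more than 1 window, while Gmnn, Mcm4, Gins1, Gins2, Gins4, Prim2, Pole, Rfc2 and Tipin did not match. The letters searched for as E2F-type sites were TTTCCCGC, TTTCGCGC, TTTGCCGC and TTTGGCGC on both strands, where overlapping matches count separately. The members shown are Orc1 and Cdc6, which had the highest fold changes, and Orc3 and Orc4, which had no call. Also shown are Mcm5, Mcm6 and Mcm7, the helicase ring genes with a match before the start. Where a gene has more than 1 window, the window with the most matches is used, and among equals the one farthest upstream. Each line gives the 250 bases before the start, 5′ to 3′ on the gene's strand, and capitals mark the E2F-type letters.
Orc1: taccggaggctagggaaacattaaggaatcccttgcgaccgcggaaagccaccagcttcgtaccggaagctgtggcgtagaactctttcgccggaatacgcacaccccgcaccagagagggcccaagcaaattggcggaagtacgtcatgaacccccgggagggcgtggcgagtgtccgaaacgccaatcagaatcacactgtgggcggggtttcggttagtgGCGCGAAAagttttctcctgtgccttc
Cdc6: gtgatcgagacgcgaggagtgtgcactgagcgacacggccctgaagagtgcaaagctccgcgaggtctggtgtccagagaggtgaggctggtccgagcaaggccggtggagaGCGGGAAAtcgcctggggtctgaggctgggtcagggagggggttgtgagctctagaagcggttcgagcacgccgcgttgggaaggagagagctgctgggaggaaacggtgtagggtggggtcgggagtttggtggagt
Mcm5: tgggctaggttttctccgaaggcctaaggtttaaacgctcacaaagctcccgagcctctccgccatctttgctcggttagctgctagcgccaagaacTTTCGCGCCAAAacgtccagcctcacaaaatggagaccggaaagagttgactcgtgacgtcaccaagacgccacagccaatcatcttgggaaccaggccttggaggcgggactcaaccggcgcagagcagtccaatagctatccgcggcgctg
Mcm6: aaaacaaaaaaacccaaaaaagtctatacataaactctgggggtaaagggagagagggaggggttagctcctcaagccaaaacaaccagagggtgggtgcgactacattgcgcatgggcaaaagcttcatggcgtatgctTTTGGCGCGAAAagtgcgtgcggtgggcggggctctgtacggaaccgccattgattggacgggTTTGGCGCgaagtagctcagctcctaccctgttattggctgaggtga
Mcm7: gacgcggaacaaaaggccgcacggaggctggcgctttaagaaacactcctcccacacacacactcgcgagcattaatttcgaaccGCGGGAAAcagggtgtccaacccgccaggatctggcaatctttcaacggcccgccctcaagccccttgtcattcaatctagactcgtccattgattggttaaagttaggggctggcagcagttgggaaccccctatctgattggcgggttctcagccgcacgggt
Orc3: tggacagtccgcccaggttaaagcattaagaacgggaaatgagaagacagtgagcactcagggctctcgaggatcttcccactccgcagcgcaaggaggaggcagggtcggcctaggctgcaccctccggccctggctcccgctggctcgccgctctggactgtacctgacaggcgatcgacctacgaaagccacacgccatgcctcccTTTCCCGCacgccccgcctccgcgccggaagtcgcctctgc
Orc4: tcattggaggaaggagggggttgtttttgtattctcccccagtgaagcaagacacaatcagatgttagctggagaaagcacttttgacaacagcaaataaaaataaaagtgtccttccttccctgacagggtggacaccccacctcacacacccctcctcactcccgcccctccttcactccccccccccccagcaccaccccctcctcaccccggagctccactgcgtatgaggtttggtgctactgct

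In order, these stretches lie at chr4:108579204-108579453 (+ strand), chr11:98907901-98908150 (+ strand), chr8:75109259-75109508 (+ strand), chr1:128359706-128359955 (- strand), chr5:138171884-138172133 (- strand), chr4:34614943-34615192 (- strand) and chr2:48950235-48950484 (- strand). Orc1 holds its match with the first base 27 bases before the start, and Cdc6 holds one 138 bases before it. In Mcm5 and Mcm6 a pair of matches on opposite strands overlap, and Mcm6 has a further match 47 bases before the start. Mcm7 has a match 165 bases before the start, and another begins at base 17 after it. Of the 49 member windows, 15 held such letters (30.6%), 1 window in each of 15 genes, where 2.26% of all 32851 windows did. Other letters were searched the same way. CCAAT was in 24 of the 49 member windows and 37.4% of all windows, CACGTG (the E-box) in 14.3% and 7.15%, and TTTGAA (the CHR element of mitotic promoters) in 16.3% and 17.9%. The 15 genes with E2F-type letters had a median log2 fold change of 1.37, from 0.14 to 2.45, and the 25 without them a median of 1.12, from -0.02 to 2.03, so the ranges overlapped. Orc3 and Pold1 hold E2F-type letters, at 41 bases before and 40 bases after the start, and had no call. Mcm10, Orc6 and Mcm2, with log2 fold changes of 2.03, 1.76 and 1.64, hold none in their windows. A match is a description of these letters and not of a bound site.

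The design sets RNA profiles of KLHL3-KI spleen against those of wild-type spleen. In KLHL3-KI spleen the replication genes were higher as a group, with the steepest rises in Orc1, Cdc6 and Mcm10, which act before or at helicase activation, and little difference in Orc4, Pold1, Orc3 and Rfc1. Of the 49 members, 45 rose and 0 fell with limma, where 15.2% of all tested genes rose and 7.56% fell. At an unadjusted p of 0.05, 46 were higher and 0 lower, and edgeR and DESeq2 on the recovered reads called 45 and 44 higher and 0 lower. Both KLHL3-KI values lay above both WT values for 48 of the 49 members, against 32.8% of tested genes, and Orc4 was the member whose groups overlapped. The median log2 fold change of the members was 1.23 and that of all tested genes -0.01. The change was over 1 for 33 members and over 2 for 3 (6.16% and 1.5% of tested genes). Together the members took 0.179% and 0.171% of all reads in WT against 0.329% and 0.394% in KLHL3-KI libraries. By role, the median log2 fold change ran from 0.66 for polymerases delta and epsilon to 1.66 for chromatin assembly factor 1, while within the origin recognition genes alone it ran from -0.02 to 2.45. In bulk spleen RNA, more cells of a dividing type and more RNA per cell cannot be told apart.

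**Figure D1:**
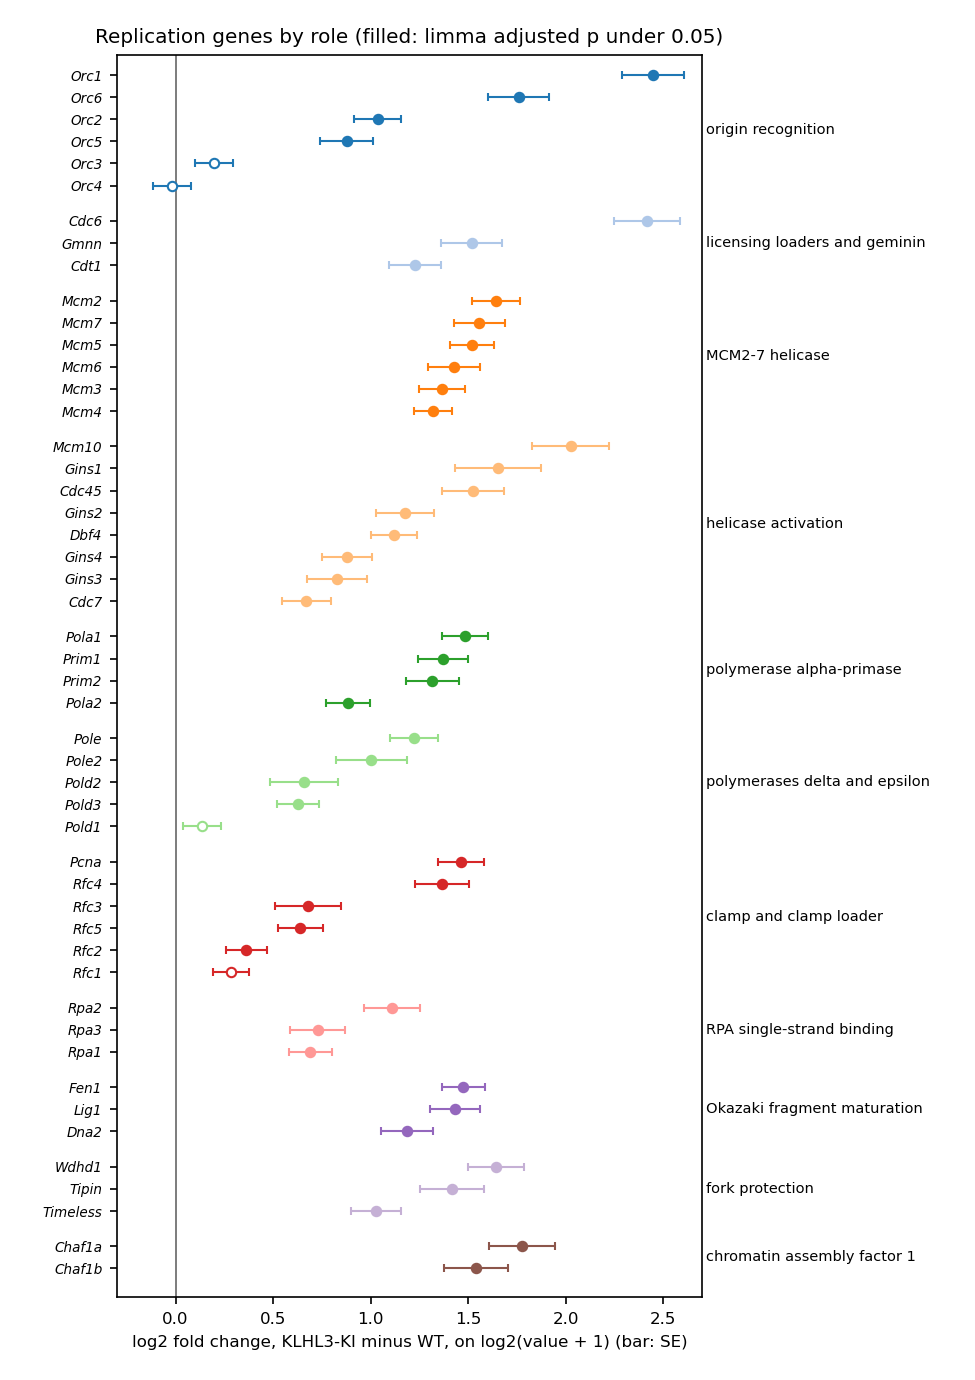
Log2 fold change (KLHL3-KI minus WT, horizontal axis) of each of the 49 replication genes, grouped by role, with bars for the SE of limma and filled points for an adjusted p under 0.05. The 4 open points are Orc3, Orc4, Pold1 and Rfc1, and the MCM2-7 genes sit close together between 1.32 and 1.64.

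The split of all tested genes depended on the scaling, and that of the members much less. With the values as deposited 2583 genes rose and 1283 fell. After quantile normalization 2041 rose and 2369 fell, with equal totals per library 1916 and 3130, and without haemoglobin, immunoglobulin and mitochondrial genes 2091 and 2970, where the median of all genes was -0.10, -0.16 and -0.14. The members that rose numbered 43, 43 and 44 there, and 0 fell.

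Genes of the origin recognition subunits moved unequally. The complex of ORC1 to ORC6 binds origins and, with CDC6, loads the helicase; ORC1 is the subunit known to be cell cycle regulated in mammalian cells. Orc1 (ENSMUSG00000028587) was measured at 6.38 and 5.50 in WT against 32.7 and 41.4 in KLHL3-KI spleen, so that both KLHL3-KI libraries stood far above both WT libraries, a 6.24-fold ratio (log2 fold change 2.45, SE 0.16, adjusted p = 6.31e-06). Orc6, which is held to the core complex less tightly than the other subunits, was at 9.96 and 9.65 in WT against 30.8 and 41.1 in KLHL3-KI spleen (3.67-fold, log2 fold change 1.76, SE 0.16, adjusted p = 4.36e-05). Orc2 rose to a lesser degree, with values of 33.6 and 30.6 against 60.9 and 73.3 (2.09-fold, log2 fold change 1.04, SE 0.12, adjusted p = 2.70e-04), and Orc5 went from 23.3 ± 2.61 to 43.8 ± 5.85 (SD; 1.88-fold, log2 fold change 0.88, SE 0.14, adjusted p = 0.00153). Values of these 4 subunits did not overlap between the groups. Both KLHL3-KI values also lay above both WT values for 32.8% of all tested genes, and below them for 31.9%. Orc3 was at 54.1 and 56.4 in WT against 61.7 and 65.4 in KLHL3-KI spleen, also without overlap but with no call (log2 fold change 0.20, SE 0.10, adjusted p = 0.185, 95% interval -0.02 to 0.42). Orc4 (ENSMUSG00000026761) was at 54.0 and 51.9 in WT against 52.5 and 52.0 in KLHL3-KI spleen, values that overlapped between the groups (log2 fold change -0.02, SE 0.10, adjusted p = 0.917, 95% interval -0.24 to 0.20).

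The genes of this complex were therefore closer in RNA level in KLHL3-KI than in WT spleen. Per kilobase of the longest protein-coding transcript in GENCODE M21, the highest of the 6 levels was 11.1 and 13.4 times the lowest in WT against 2.47 and 2.22 times in KLHL3-KI libraries. Orc1 was the lowest in WT, at 2.12 and 1.83 per kilobase, and Orc3 the highest, at 23.5 and 24.5. The ratio of Orc1 to Orc4 reads within a library was 0.118 and 0.106 in WT against 0.623 and 0.796 in KLHL3-KI libraries. That ratio did not overlap between the groups, although with 2 libraries a group the smallest p of an exact permutation test is 0.333. Orc1 and Orc4 had the highest and the lowest log2 fold change of the 49 members. The separation of their ratio therefore follows from the choice of these genes and is no further result.

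RNA of the loader genes Cdc6 and Cdt1 rose, and so did that of geminin, whose protein inhibits CDT1 after origins have fired. Protein levels were not measured. Cdc6 (ENSMUSG00000017499) was at 22.4 and 15.6 in WT against 93.5 and 116 in KLHL3-KI spleen (5.53-fold, log2 fold change 2.42, SE 0.17, adjusted p = 9.51e-06). Cdt1 rose by a smaller factor, from 23.1 ± 0.223 to 55.8 ± 9.33 (SD; 2.42-fold, log2 fold change 1.23, SE 0.13, adjusted p = 1.52e-04). Gmnn, the geminin gene, was at 7.27 and 8.30 in WT against 21.9 and 26.6 in KLHL3-KI spleen (3.11-fold, log2 fold change 1.52, SE 0.16, adjusted p = 1.13e-04). All KLHL3-KI values of the 3 genes lay above the WT values, as they did for 32.8% of all tested genes. The ratio of Cdt1 to Gmnn reads was 3.15 and 2.80 in WT against 2.25 and 2.35 in KLHL3-KI libraries, lower in both, and that of Cdc6 to Cdt1 went the other way, from 0.976 and 0.670 to 1.90 and 1.86.

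The genes of the MCM2-7 helicase, a ring of 6 different subunits, all rose, within a narrow range. Mcm2 (ENSMUSG00000002870) was at 77.0 and 69.3 in WT against 204 and 261 in KLHL3-KI spleen (3.17-fold, log2 fold change 1.64, SE 0.12, adjusted p = 1.58e-05), the highest fold of the ring. Mcm4, the lowest, was at 73.1 and 70.4 in WT against 169.9 and 192 in KLHL3-KI spleen (2.52-fold, log2 fold change 1.32, SE 0.10, adjusted p = 1.41e-05). Between them, Mcm7 rose 2.99-fold, Mcm5 2.91-fold, Mcm6 2.74-fold and Mcm3 2.61-fold, with log2 fold changes from 1.37 to 1.56. These 6 log2 fold changes lay within 0.32 of each other, while the SE of each was 0.10 to 0.13. Per kilobase, the highest of the 6 levels was 1.38 and 1.29 times the lowest in WT against 1.45 and 1.69 times in KLHL3-KI libraries, a narrow span beside that of the origin recognition genes. The value of Mcm7 is uncertain, since 26.0% of the 50-base stretches of its transcript also occur in the gene model Gm5487. The plot of values by library shows the even rise of the ring beside the uneven one of the origin complex.

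**Figure D2:**
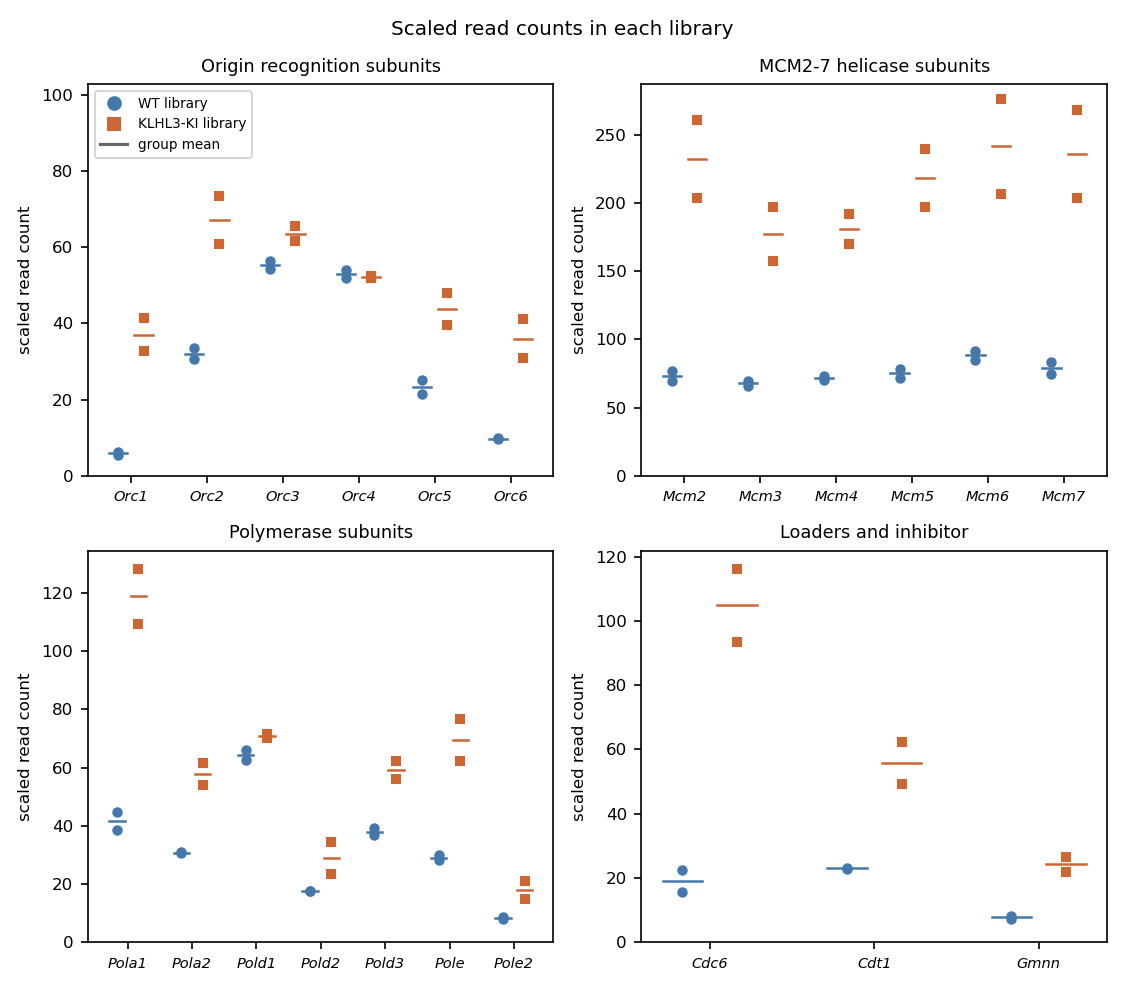
Scaled read count (vertical axis, from 0) of single genes in each of the 2 WT libraries (circles) and 2 KLHL3-KI libraries (squares), with lines for group means. Orc4 lies at the same level in both groups and Orc1 does not, the MCM2-7 genes lie at 157 or above in KLHL3-KI and at 91.9 or below in WT libraries, and Pold1 differs little.

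The genes of the factors that activate the helicase all rose, by 1.62 to 4.26 times. Mcm10, which is needed for the loaded helicase to start unwinding, was at 14.8 and 9.34 in WT against 45.6 and 57.2 in KLHL3-KI spleen (4.26-fold, log2 fold change 2.03, SE 0.20, adjusted p = 7.81e-05). Cdc45, a stable part of the active helicase, was at 11.3 and 10.3 in WT against 28.4 and 38.1 in KLHL3-KI spleen (3.08-fold, log2 fold change 1.53, SE 0.16, adjusted p = 1.32e-04). GINS is a complex of 4 subunits that joins it, and its genes differed in size of change: Gins1 went from 3.24 ± 0.324 to 12.6 ± 3.80 (3.89-fold), Gins2 from 14.0 ± 1.35 to 33.1 ± 5.24 (2.36-fold), Gins4 from 16.3 ± 1.02 to 30.9 ± 2.36 (1.89-fold) and Gins3 from 7.48 ± 0.289 to 14.0 ± 0.242 (1.88-fold), each as mean ± SD. Gins1 had the lowest scaled count of all members in WT, on 31 and 29 reads. Per kilobase it was at 3.19 and 2.77 in WT, above Orc1 at 2.12 and 1.83. The kinase that triggers helicase activation has a catalytic subunit, CDC7, and a regulatory one, DBF4. Dbf4 was at 29.3 and 25.5 in WT against 57.7 and 63.9 in KLHL3-KI spleen (2.22-fold, log2 fold change 1.12, SE 0.12, adjusted p = 1.27e-04). Cdc7 was at 19.4 and 19.1 in WT against 29.1 and 33.4 in KLHL3-KI spleen (1.62-fold, log2 fold change 0.67, SE 0.13, adjusted p = 0.00457), and without WT replicate 2 it had no call (adjusted p = 0.0533). The ratio of Dbf4 to Cdc7 reads was 1.51 and 1.34 in WT against 1.98 and 1.91 in KLHL3-KI libraries.

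Among the replicative polymerases, the primer-making complex had the higher median log2 fold change (1.34, against 0.66 for polymerases delta and epsilon together), and the catalytic subunit of polymerase delta had no call. Pola1, the catalytic subunit of polymerase alpha, was at 44.9 and 38.7 in WT against 109 and 128 in KLHL3-KI spleen (2.84-fold, log2 fold change 1.48, SE 0.12, adjusted p = 2.06e-05). The primase genes Prim1, catalytic, and Prim2, regulatory, rose 2.69-fold and 2.59-fold, and the accessory subunit gene Pola2 rose 1.88-fold. Pole, the catalytic subunit of the leading strand polymerase epsilon, was at 30.0 and 28.2 in WT against 62.4 and 76.7 in KLHL3-KI spleen (2.39-fold, log2 fold change 1.22, SE 0.12, adjusted p = 9.88e-05). Its partner Pole2 went from 8.36 ± 0.367 to 18.0 ± 4.28 (SD; 2.16-fold, log2 fold change 1.00, SE 0.18, adjusted p = 0.00359), and had no call without WT replicate 2 (adjusted p = 0.0532). Pold1 (ENSMUSG00000038644), the catalytic subunit of the lagging strand polymerase delta, was at 62.7 and 66.2 in WT against 70.2 and 71.6 in KLHL3-KI spleen, with no overlap but no call (log2 fold change 0.14, SE 0.10, adjusted p = 0.348, 95% interval -0.08 to 0.35). Its direction was not stable, since the log2 fold change was -0.0085 after quantile normalization, -0.031 with equal totals and -0.00099 without haemoglobin, immunoglobulin and mitochondrial genes. Pold3, a subunit that binds PCNA, rose 1.56-fold (log2 fold change 0.63, SE 0.11, adjusted p = 0.00284). Pold2 was at 17.8 and 17.5 in WT against 23.3 and 34.6 in KLHL3-KI spleen (1.64-fold, log2 fold change 0.66, SE 0.17, adjusted p = 0.0244), and its KLHL3-KI libraries stood apart from each other. That call was lost without WT replicate 1, WT replicate 2 or KLHL3-KI replicate 2 (adjusted p = 0.128, 0.154 and 0.150), and 11 of 17 alternatives kept it. Within a library the ratio of Pola1 to Pold1 reads was 0.716 and 0.585 in WT against 1.56 and 1.79 in KLHL3-KI spleen, and that of Pole to Pold1 was 0.479 and 0.426 against 0.890 and 1.07. These ratios restate the rise of Pola1 and Pole beside Pold1, which had no call. For Pole2, 11.8% of 50-base stretches also occur in the overlapping gene model Gm49384, which had 0 and 0 reads in WT against 15 and 22 in KLHL3-KI libraries, so single values of this pair are uncertain.

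The sliding clamp gene Pcna and the loader gene Rfc4 had higher folds than the other loader genes, which ran from 1.22 to 1.65. Pcna (ENSMUSG00000027342), the ring that tethers polymerases to DNA, was at 128 and 103 in WT against 301 and 336 in KLHL3-KI spleen (2.76-fold, log2 fold change 1.47, SE 0.12, adjusted p = 2.16e-05), the most abundant member in each library per kilobase as well as in scaled counts. Its value is uncertain because 31.8% of the 50-base stretches of its transcript occur in Pcna-ps2. Replication factor C opens and loads the clamp. Of its subunit genes, Rfc4 was at 12.1 and 11.2 in WT against 28.9 and 34.6 in KLHL3-KI spleen (2.72-fold, log2 fold change 1.37, SE 0.14, adjusted p = 1.10e-04). Rfc5 and Rfc3 rose 1.58-fold and 1.65-fold, and Rfc2 was at 50.01 and 52.2 in WT against 62.1 and 70.0 in KLHL3-KI spleen (1.29-fold, log2 fold change 0.36, SE 0.11, adjusted p = 0.0354). Rfc1, the large subunit, was at 84.6 and 79.9 in WT against 98.8 and 102 in KLHL3-KI spleen and missed the threshold (log2 fold change 0.29, SE 0.09, adjusted p = 0.0548, 95% interval 0.08 to 0.50), although with a minimum mean of 5 it passed (adjusted p = 0.0476). The call of Rfc2 was lost in 8 of 17 alternatives (range of adjusted p 0.0163 to 0.191), among them leaving out WT replicate 1, WT replicate 2 or KLHL3-KI replicate 2 (0.172, 0.136 and 0.191). That of Rfc3 was lost in 3 alternatives, without WT replicate 2 or KLHL3-KI replicate 2 (0.160 and 0.0872) and with no variance trend (0.0630). The ratio of Rfc4 to Rfc1 reads was 0.143 and 0.140 in WT against 0.292 and 0.339 in KLHL3-KI libraries, higher in both KLHL3-KI libraries. It restates the rise of Rfc4 beside Rfc1, which had no call.

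Single-strand binding, strand finishing and fork genes rose as well. Replication protein A coats unwound DNA, and its genes Rpa2, Rpa3 and Rpa1 rose 2.22-fold, 1.72-fold and 1.63-fold. Rpa1 was at 92.9 and 88.6 in WT against 133 and 162 in KLHL3-KI spleen (log2 fold change 0.69, SE 0.11, adjusted p = 0.00197). Rpa3 had no call without WT replicate 1 (adjusted p = 0.0517), and 16.6% of its 50-base stretches occur in other gene models. Fen1, the nuclease that trims Okazaki fragments, was at 41.6 and 38.6 in WT against 105 and 123 in KLHL3-KI spleen (2.83-fold, log2 fold change 1.48, SE 0.11, adjusted p = 1.49e-05). Lig1, the ligase that joins them, was at 37.3 and 35.0 in WT against 87.6 and 112 in KLHL3-KI spleen (2.77-fold, log2 fold change 1.43, SE 0.13, adjusted p = 4.36e-05). Dna2, a nuclease and helicase for long flaps, rose 2.37-fold (log2 fold change 1.19, SE 0.13, adjusted p = 2.12e-04). Timeless and Tipin, which form a fork protection complex, rose 2.11-fold and 2.85-fold, and Wdhd1, which links the helicase to polymerase alpha, went from 31.3 ± 5.54 to 99.7 ± 14.7 (SD; 3.18-fold, log2 fold change 1.64, SE 0.14, adjusted p = 3.96e-05). Chromatin assembly factor 1 places histones behind the fork. Its large subunit gene Chaf1a was at 15.6 and 15.4 in WT against 45.6 and 67.4 in KLHL3-KI spleen (3.66-fold, log2 fold change 1.78, SE 0.17, adjusted p = 6.82e-05), and Chaf1b at 8.61 and 7.47 in WT against 22.2 and 28.6 in KLHL3-KI spleen (3.16-fold, log2 fold change 1.54, SE 0.16, adjusted p = 1.47e-04). The ratio of Chaf1a to Chaf1b reads overlapped between the groups, at 1.81 and 2.06 in WT against 2.05 and 2.35 in KLHL3-KI libraries.

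Other genes of the fork, written as a list of 38 that are not members, were mostly higher too. Of the 37 that matched 1 row, all were tested, 30 rose and 1 fell, with a median log2 fold change of 0.84. Of all tested genes, 15.2% rose and 7.56% fell. The highest were Esco2, a cohesin acetyltransferase, at 12.9 and 11.4 in WT against 59.3 and 70.7 in KLHL3-KI spleen (log2 fold change 2.32, SE 0.13, adjusted p = 2.88e-06), Dtl, the ubiquitin ligase adaptor that removes CDT1, at 2.15, and Asf1b, a histone chaperone, at 1.92 on the log2 scale. Pold4, the smallest subunit of polymerase delta, was the one that fell, at 52.9 and 55.1 in WT against 39.1 and 37.3 in KLHL3-KI spleen (log2 fold change -0.49, SE 0.10, adjusted p = 0.00822). Its call was lost without WT replicate 1 or WT replicate 2 (adjusted p = 0.0527 and 0.0868), while both KLHL3-KI values stayed below both WT values. Mcmbp, which binds MCM proteins, and Mcm9, a helicase of recombination, had no call (-0.17 and 0.05 on the log2 scale). The direction of Mcm9 was not stable, at -0.12 after quantile normalization and with equal totals and -0.089 without haemoglobin, immunoglobulin and mitochondrial genes. Under those same scalings Mcmbp passed as lower (adjusted p = 0.0364, 0.0231 and 0.0277).

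Of 15 genes of DNA polymerases other than the replicative ones, for repair, lesion bypass, mitochondrial DNA and receptor gene joining, 14 were tested (median log2 fold change 0.08). Among them 0 fell and 2 rose, a count near the 15.2% of all tested genes that rose. These were Polq, the polymerase of end joining by microhomology, at 22.3 and 19.0 in WT against 63.1 and 88.6 in KLHL3-KI spleen (log2 fold change 1.81, SE 0.16, adjusted p = 4.20e-05), and Polh, which copies past ultraviolet damage, at 28.8 and 31.9 in WT against 57.2 and 60.0 in KLHL3-KI spleen (log2 fold change 0.93, SE 0.11, adjusted p = 2.71e-04). Polb, the base excision repair polymerase, was at 21.3 and 21.1 in WT against 21.1 and 21.3 in KLHL3-KI spleen, almost the same in all 4 libraries. Mad2l2 was at 0.34, and the lowest were Polm, Poll and Polg at -0.48, -0.21 and -0.19, with no call. Polm passed as lower under 5 of 17 alternatives, among them without KLHL3-KI replicate 1 (adjusted p = 0.0138), and Polg with equal totals (0.0420) and without haemoglobin, immunoglobulin and mitochondrial genes (0.0442). Whether the lists differ was not tested, and the plot of fold changes by list sets them side by side.

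**Figure D3:**
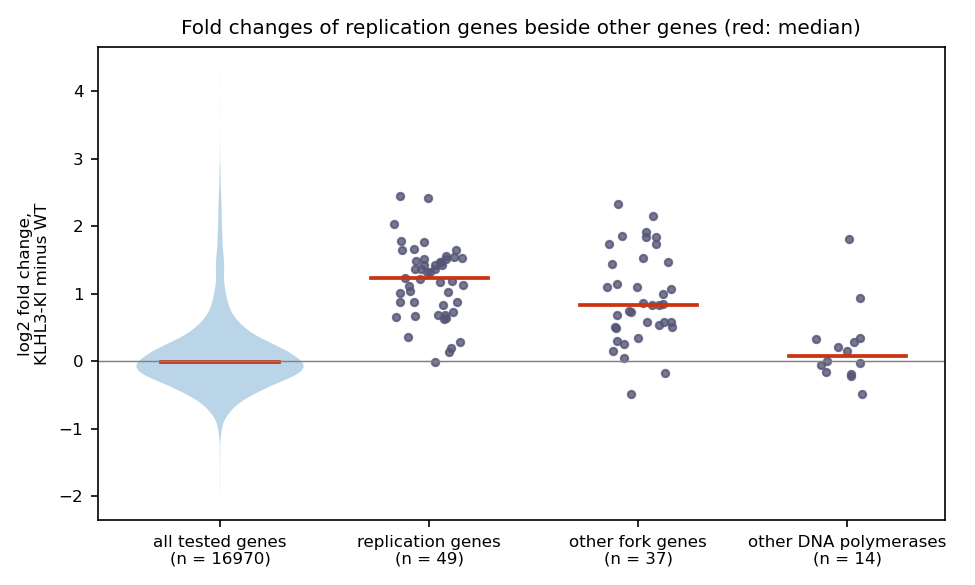
Log2 fold change (KLHL3-KI minus WT, vertical axis) of all 16970 tested genes (shaded outline), the 49 replication genes, 37 other fork genes and 14 other DNA polymerases (1 point a gene), with red lines for medians. The medians are -0.01, 1.23, 0.84 and 0.08.

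Libraries of 1 group also differed from each other in these genes. KLHL3-KI replicate 2 was above KLHL3-KI replicate 1 for 47 of the 49 members, where 54.3% of tested genes were, with a median ratio of 1.22. WT replicate 1 was above WT replicate 2 for 38 of them (51.8% of tested genes), with a median ratio of 1.07. The summed level of the members was 1714 and 1589 in WT against 3474 and 4196 in KLHL3-KI libraries, so the gap between the groups exceeded that within them. Without KLHL3-KI replicate 1 the median log2 fold change was 1.40, and without KLHL3-KI replicate 2 it was 1.08.

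Markers of dividing cells and of several blood lineages moved with the replication genes. The marker counts below stand beside the 15.2% of all tested genes that rose and the 7.56% that fell. All 8 markers of dividing cells (Mki67, Top2a, Ccna2, Ccnb1, Cdk1, Aurkb, Plk1 and Birc5) rose, and their summed level was 767 and 666 in WT against 3381 and 4085 in KLHL3-KI libraries. Mki67 made up most of it, at 450 and 392 in WT against 2167 and 2638 in KLHL3-KI spleen. All 10 red cell precursor markers rose, including Klf1 and Gata1, with sums of 1626 and 1291 against 6051 and 6903. The largest part of these sums was Slc4a1, at 596 and 464 in WT against 2703 and 3056 in KLHL3-KI spleen. All 8 neutrophil precursor markers rose, with sums of 70.3 and 25.1 against 688 and 966, and so did all 6 megakaryocyte markers, with sums of 99.0 and 112 against 212 and 281. Of 6 progenitor markers 2 rose and 1 fell, with sums of 165 and 147 against 189 and 239, where 15.2% of all tested genes rose and 7.56% fell. That higher sum came mainly from Myb, at 34.6 and 34.8 in WT against 74.0 and 115 in KLHL3-KI spleen. Mycn also rose, Gata2 was above WT with no call, Kit and Cd34 overlapped between the groups, and Flt3 fell. All 8 T cell markers and 6 of 7 B cell markers fell, with sums of 489 and 428 against 285 and 250.5 for T cells and 2854 and 2939 against 2191 and 1648 for B cells. Of 6 germinal centre B cell markers, a stage in which B cells divide, 3 fell (49.9 and 52.3 against 37.7 and 29.6). Of 6 plasma cell markers 1 fell, where 7.56% of all tested genes did. The plasma cell sum was higher in both KLHL3-KI libraries (1945 and 2042 against 2071 and 2582). Most of that sum was Jchain, at 1413 and 1497 in WT against 1557 and 2056 in KLHL3-KI spleen, with no call. Xbp1 was also above WT in both KLHL3-KI libraries, Prdm1 overlapped, and Sdc1, Mzb1 and Irf4 were below. None of the listed markers was at 0 in any library, but some neutrophil precursor markers were near the floor in WT. Cebpe had 8 and 2 reads in WT against 30 and 56 in KLHL3-KI libraries, and Ctsg 4 and 9 against 67 and 149. Camp differed between the WT libraries, at 74 and 16 reads. The part of the marked cell types in the rise of the replication genes was not tested.

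**Figure D4:**
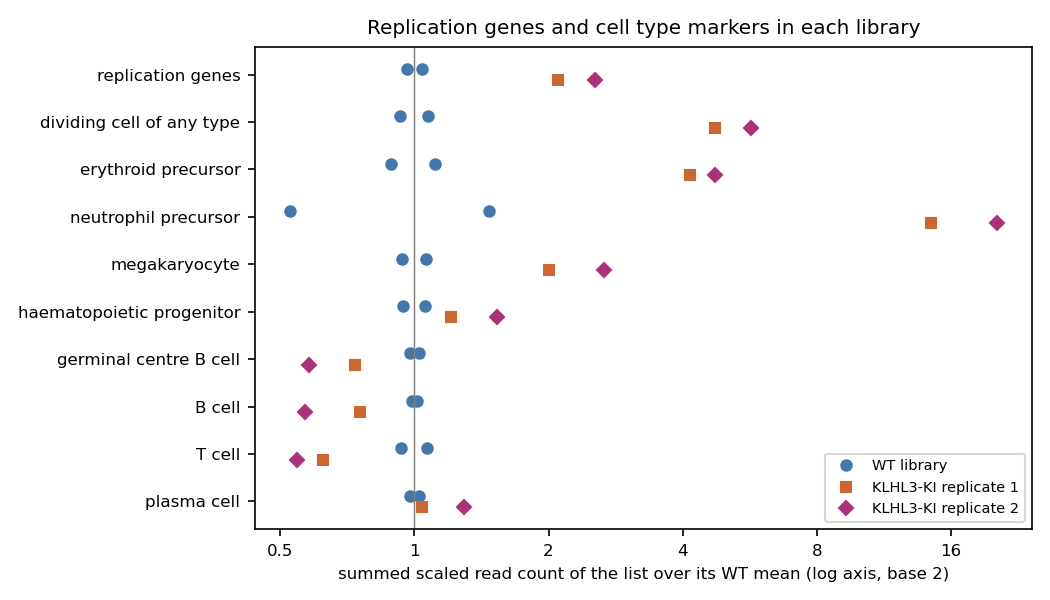
Summed scaled read count of the replication genes and of each marker list in each library, divided by the mean of the WT libraries (log axis, base 2). Circles are WT libraries, the square is KLHL3-KI replicate 1 and the diamond KLHL3-KI replicate 2. The replication genes lie to the right of the WT libraries in both KLHL3-KI libraries, as do the dividing cell, red cell, neutrophil and megakaryocyte lists. The progenitor and plasma cell lists do so by less, the first mainly through Myb and the second mainly through Jchain. The B cell, germinal centre and T cell lists lie to the left.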

How the data were processed

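RNA of 4 spleen libraries was compared, 2 WT and 2 KLHL3-KI, grouped and numbered by their titles, with columns matched by the library name in the descriptions. Per the submitters' processing notes, Trimmomatic 0.38, Bowtie2, RSEM 1.3.0 and edgeR were used with build GRCm39; the sources used here do not give their roles or the annotation. The deposited table holds a normalized signal per gene. Every value was a whole multiple of its library's smallest value (100% of values, within 0.001 of a read), so reads divided by 1 factor per library, and whole reads were recovered. Genes were named from an annotation of build GRCm38 (23605 of 23763, 99.3%); Chtf8, with 2 rows, was left out. Genes with a mean of at least 1 (16970; 6793 were under it) were compared on log2(value + 1) with limma 3.58.1 in R 4.3.3 (mean-variance trend, two-sided, adjusted p under 0.05). The recovered reads were also tested with edgeR 4.0.16 and DESeq2 1.42.0, and 17 alternatives were run; fits were tested on simulated data. Replicates differed by more than counting error, so n = 2 limits precision: chi-square per degree of freedom was 4.72 for the WT pair and 8.46 for the KLHL3-KI pair. Members, lists and the rule for named genes (all members, and of the other fork and polymerase lists the 3 highest, the 3 lowest and any that fell) were chosen with earlier results of these data known; Polb was named after its values were seen.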

Additional observations from a re-analysis of the deposited data

How the results depend on the processing

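Across 17 alternatives, 39 of the 45 members that rose kept their call in each, and 47 of 49 kept a positive log2 fold change, the exceptions being Orc4 and Pold1. The members that rose numbered 40 to 46 and those that fell 0 in each alternative. The replicate block by title number, which the labels do not tie to shared animals or batches, gave 45 members higher, and 2715 genes higher and 1415 lower over all genes. Library names in the descriptions are not numbered as the titles are, and within the first pair of the block their numbers differ. The deviations of libraries with the same title number had a correlation of -0.032 across genes. The median of the members was 1.08 to 1.40 with 1 library left out. Over all genes, 1386 to 2903 rose and 267 to 1627 fell with 1 library left out, and 2369 fell after quantile normalization, 3130 with equal totals, 2970 without haemoglobin, immunoglobulin and mitochondrial genes, 781 with DESeq2 and 659 with no variance trend. The log2 fold change of Orc4 was -0.18 to 0.010 over the alternatives, and with 1 library left out it was -0.047 to 0.010, positive without WT replicate 1. That of Pold1 was -0.0085, -0.031 and -0.00099, and of Mcm9 -0.12, -0.12 and -0.089, after quantile normalization, with equal totals and with the 3 gene classes removed. The causes were not tested. Gins1 rests on 29 to 157 reads a library.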
